A study of Mus musculus with 14 samples.

Results

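The genes described here are 5 enzyme classes that handle foreign compounds and aldehydes. They were taken as every protein-coding gene of the count table whose symbol starts with 1 of 13 family prefixes, and 87 of 55487 genes met that rule. They comprise 25 glutathione transferases (Gsta 4, Gstm 7, Gstp 3, Gstt 4, Gsto 2, Gstk 1, Gstz 1 and the membrane-bound Mgst 3), 16 aldo-keto reductases of the Akr1 family, 19 glucuronosyltransferases (Ugt1 9 and Ugt2 10), 6 sulfotransferases of the Sult1 family and 21 aldehyde dehydrogenases (Aldh). The rule reads symbols only, but the families were picked with earlier results of these data known, so their counts below are descriptions of a chosen set.

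Aldo-keto reductases reduce aldehydes and ketones to alcohols with NADPH, and aldehyde dehydrogenases oxidise aldehydes to acids. Glutathione transferases, glucuronosyltransferases and sulfotransferases attach glutathione, glucuronic acid or sulfate to reactive or poorly soluble compounds, which can then be exported from the cell. In the gut these enzymes meet dietary compounds, bacterial products, steroids and aldehydes from lipid oxidation, and many of their genes are textbook targets of the transcription factor NRF2 or of the aryl hydrocarbon receptor.

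RNA from sorted cells of mouse colon was sequenced in 14 libraries. The cre animals were Tsc2fl/fl Lyz2cre/+, with Cre recombinase under control of Lyz2, a gene of myeloid cells, and the wt animals were Tsc2fl/fl Lyz2+/+. Both genotypes therefore carried floxed Tsc2, a gene that restrains the growth kinase complex mTORC1. Since recombinase without floxed Tsc2 is not among the groups, the 2 alleles cannot be told apart. EpCAM+ CD44+ CD45- epithelial cells gave 4 cre libraries (3 male, 1 female) and 4 wt libraries (2 male, 2 female). CD45+ CD11b+ CD64+ MHCII+ lamina propria macrophages gave 3 cre libraries (all male) and 3 wt libraries (1 male, 2 female). The labels used here give neither age nor background strain. The epithelial comparison asks how the epithelium differs where the deletion is directed at neighbouring myeloid cells. Library titles number 4 wt mice, but the submitters' description counts 3. P-values therefore measure the spread between these libraries, and they may be too small if wt libraries share an animal.

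Libraries held 7269103 to 9364551 counts. Epcam had 3793 to 5725 counts in epithelial libraries and 24 to 115 in macrophage libraries, and Csf1r, the receptor for a macrophage growth factor, had 29 to 143 counts in epithelial libraries and 11565 to 15243 in macrophage libraries. The ribosomal RNA share of counts was 7.38% to 26.7% in cre epithelial libraries, with cre 8 alone above 10.6%, and 18.5% to 31.8% in wt epithelial libraries. The mitochondrial share was 10.4% to 10.7% in cre and 11.6% to 18.1% in wt epithelial libraries. Both shares moved with genotype, and their part in the results below was examined only through the models named there. Of the 87 members, 67 had a count in every epithelial library and 50 in every macrophage library, and 4 (Akr1c20, Akr1c6, Ugt2a1 and Ugt2a2) had none in any library. A filter on low counts left 63 members for the epithelial comparison, 45 for the macrophage comparison and 66 for comparisons between the populations. In bulk samples, fewer cells of a type and less RNA per cell cannot be told apart.

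The promoter windows of 5 members are printed first, because 3 Akr1c genes of the same cluster hold the largest epithelial rise and 2 of the 3 differences between populations, and because Gsta1 rose second most and Sult1d1 was the gene that fell. Each is the RefSeq window of GRCm38.p6 from 250 bases before to 50 bases after the annotated start, read 5′ to 3′ on the strand of the gene. Capitals mark the antioxidant response element core TGACNNNGC, which NRF2 binds, or the xenobiotic response element core GCGTG, which the aryl hydrocarbon receptor binds. Both were searched on both strands, and no letters marked here belong to both motifs. The windows are chr13:4573825-4574124 on the plus strand for Akr1c21, chr13:4233490-4233789 plus for Akr1c19, chr13:4190937-4191236 plus for Akr1c13, chr9:78230419-78230718 plus for Gsta1 and chr5:87568957-87569256 on the minus strand for Sult1d1.
Akr1c21: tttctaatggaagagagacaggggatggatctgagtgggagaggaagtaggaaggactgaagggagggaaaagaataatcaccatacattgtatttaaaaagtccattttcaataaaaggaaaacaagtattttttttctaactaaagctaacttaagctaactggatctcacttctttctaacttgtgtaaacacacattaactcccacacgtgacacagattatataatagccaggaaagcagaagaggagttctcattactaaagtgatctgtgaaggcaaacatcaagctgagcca
Akr1c19: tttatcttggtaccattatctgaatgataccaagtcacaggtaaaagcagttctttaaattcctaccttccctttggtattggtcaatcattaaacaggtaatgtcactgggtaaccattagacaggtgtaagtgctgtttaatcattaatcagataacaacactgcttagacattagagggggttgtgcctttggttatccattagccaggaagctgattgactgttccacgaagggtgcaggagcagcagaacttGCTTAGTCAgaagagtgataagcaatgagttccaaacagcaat
Akr1c13: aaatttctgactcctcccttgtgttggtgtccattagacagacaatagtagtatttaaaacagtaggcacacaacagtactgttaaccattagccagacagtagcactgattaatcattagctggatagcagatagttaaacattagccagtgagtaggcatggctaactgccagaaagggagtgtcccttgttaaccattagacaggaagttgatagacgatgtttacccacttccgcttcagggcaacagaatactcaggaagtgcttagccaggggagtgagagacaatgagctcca
Gsta1: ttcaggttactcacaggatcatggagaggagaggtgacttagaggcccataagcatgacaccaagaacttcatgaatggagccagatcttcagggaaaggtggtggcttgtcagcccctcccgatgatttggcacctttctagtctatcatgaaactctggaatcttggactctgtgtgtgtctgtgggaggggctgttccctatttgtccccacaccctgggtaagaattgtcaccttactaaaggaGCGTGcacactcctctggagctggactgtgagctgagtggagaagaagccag
Sult1d1: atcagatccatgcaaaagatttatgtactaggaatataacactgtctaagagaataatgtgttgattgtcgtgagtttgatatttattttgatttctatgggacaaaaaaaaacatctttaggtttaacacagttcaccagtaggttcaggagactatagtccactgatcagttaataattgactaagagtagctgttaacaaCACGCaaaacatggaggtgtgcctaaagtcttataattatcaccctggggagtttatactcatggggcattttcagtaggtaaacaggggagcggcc
The Akr1c19 window held the antioxidant core on the minus strand, beginning 7 bases after the start. The Gsta1 window held the xenobiotic core beginning 2 bases before the start, at position -2, and the Sult1d1 window held it on the minus strand at position -47. Neither motif's letters were in the Akr1c21 and Akr1c13 windows. The antioxidant core was in 9.09% of the 88 windows of the 76 members that have one, and in 12.4% of all 32851 promoter windows. The xenobiotic core was in 23.9% of the members' windows and in 32.4% of all windows. Of the 14 members with a window that rose in cre epithelial cells, 1 (Akr1c19) held the antioxidant core and 3 (Gsta1, Gstm1 and Gstp1) the xenobiotic core. A match describes letters in a window and is no measure of binding.

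In epithelial cells, members of 3 of the 5 classes rose in cre animals. With edgeR's quasi-likelihood test at an adjusted p under 0.05, 15 of the 63 tested members were higher in cre and 1 was lower, against 5.64% higher and 3.53% lower of all 13553 genes tested (9.17% in either direction). The 15 were 9 glutathione transferases, 3 aldo-keto reductases and 3 aldehyde dehydrogenases, and the 1 was the sulfotransferase gene Sult1d1. No glucuronosyltransferase passed. Of the 63 members 49 had a positive log2 change, and their median was 0.21, against -0.05 over all genes tested. The 4 cre libraries all lay above the 4 wt libraries for 19 members and all below for 3, against 9.92% and 6.68% of all genes. Of the 15 rises 12 lay between 1.22-fold (Akr1a1) and 1.5-fold (Aldh1a1), and Akr1c21, Gsta1 and Aldh3b2 stood above that at 3.94-fold, 2.01-fold and 1.81-fold.

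**Figure D1:**
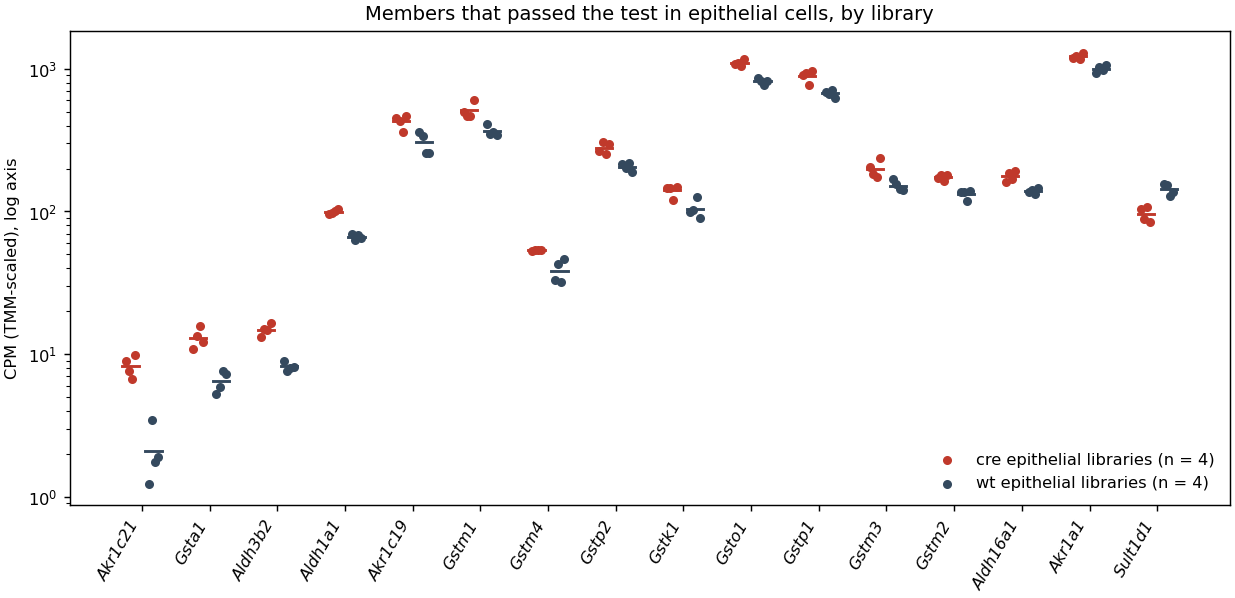
Level of the 16 members that passed the test in epithelial cells, as CPM on a log axis, with 1 point per library (red cre, dark blue wt, n = 4 each) and a line at each mean. Akr1c21 stands farthest apart, from 6.66 to 9.90 CPM in cre and from 1.23 to 3.47 CPM in wt, and Sult1d1 at the right is the gene that fell.

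These calls depended on the libraries and on the model. Only 4 of the 16, Akr1c21, Gsta1, Aldh1a1 and Gsto1, passed whichever of the 8 libraries was left out, and the number of members higher in cre ranged widely. It was 4, 6 and 7 when cre 9, cre 5 or cre 10 was left out, 10 for wt 2 or wt 4, 12 for wt 6 or wt 7, and 18 for cre 8, the cre library with the highest ribosomal RNA share. The share of all genes called moved alike, against 9.17% with all 8 libraries. It was 1.29%, 2.31% and 3.98% without cre 9, cre 5 or cre 10, and 14.1% without cre 8. Without wt 2, 4, 6 or 7 it was 4.95%, 6.15%, 8.87% and 7.83%. No member passed in males alone (3 cre, 2 wt), with the ribosomal RNA share as a covariate or in a fit of all 14 libraries, where 5, 3 and 19 of all genes passed. With ribosomal RNA, mitochondrial and pseudogene rows left out, 16 members were higher and 1 lower, against 10.6% of all genes called. The 15 rises and the 1 fall were all among them. The mitochondrial share was not used as a covariate. When expression was corrected in each library for a trend with transcript length and GC content, 6 members were higher and 0 lower, against 414 calls among 13543 genes. The 6 were Akr1c21, Akr1c19, Aldh1a1, Aldh3b2, Gsta1 and Akr1b3, and the first 5 of these are among the 15.

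The aldo-keto reductases held the widest range of changes. Of 10 tested, 3 rose, 0 fell, 7 had a positive change and 3 a negative one (median 0.25). Akr1c21 (ENSMUSG00000021207, chr13:4574075-4586541, plus strand, GRCm38) encodes a hydroxysteroid dehydrogenase that acts on steroids at the 3-alpha and 17-alpha positions in the mouse. Here and below, values per library are CPM, counts scaled to the TMM library size, for mice 5, 8, 9 and 10 of cre epithelial cells and mice 2, 4, 6 and 7 of wt. Akr1c21 had 7.62, 6.66, 9.90 and 9.00 CPM in cre, against 1.23, 3.47, 1.75 and 1.89 CPM in wt. Every cre library lay above every wt library, and wt 4 was the highest of the wt libraries (log2 change 1.98, SE 0.30, edgeR adjusted p = 0.00648). The change was 1.97 after the GC and length trend was removed, and 1.44 to 2.35 over all settings.

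Akr1c19, a member of the same cluster, had 433, 359, 466 and 453 CPM in cre, against 362, 340.1, 258 and 258 CPM in wt. The groups touched, with cre 8 below wt 2, and wt 6 and wt 7 lowest (log2 change 0.49, SE 0.13, edgeR adjusted p = 0.0286). Without cre 5, 9, 10 or wt 7 it did not pass, whereas the change was 0.84 after the GC and length trend was removed, for a transcript of 5832 bases.

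Akr1a1, the general aldehyde reductase, was the most abundant aldo-keto reductase in both populations and had 1237, 1164, 1296 and 1188 CPM in cre, against 940.0, 1024, 983 and 1060 CPM in wt. All cre libraries were above all wt libraries, by a small margin (log2 change 0.29, SE 0.08, edgeR adjusted p = 0.0456). Akr1b3, the mouse aldose reductase that makes sorbitol from glucose, had 76.5, 81.2, 93.6 and 82.5 CPM in cre, against 59.9, 72.1, 60.5 and 66.6 CPM in wt. These groups did not overlap either, and Akr1b3 lay just outside the threshold (log2 change 0.37, SE 0.11, edgeR adjusted p = 0.0513).

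Other genes of the same stretch of chromosome 13 had negative changes that did not pass. Akr1c14, a rodent 3-alpha-hydroxysteroid dehydrogenase, had 24.9, 27.2, 19.9 and 31.4 CPM in cre, against 31.0, 37.0, 32.5 and 42.8 CPM in wt (log2 change -0.47, SE 0.16, edgeR adjusted p = 0.0729). Akr1c12 and Akr1c13 share 28.6% of their 50-base windows with each other, so single 50-base reads may be split between them. Their sum was 103 ± 8.44 CPM in cre and 118 ± 11.3 CPM in wt epithelial libraries (SD, n = 4 each). Akr1c21 shares no 50-base window with another gene.

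**Figure D2:**
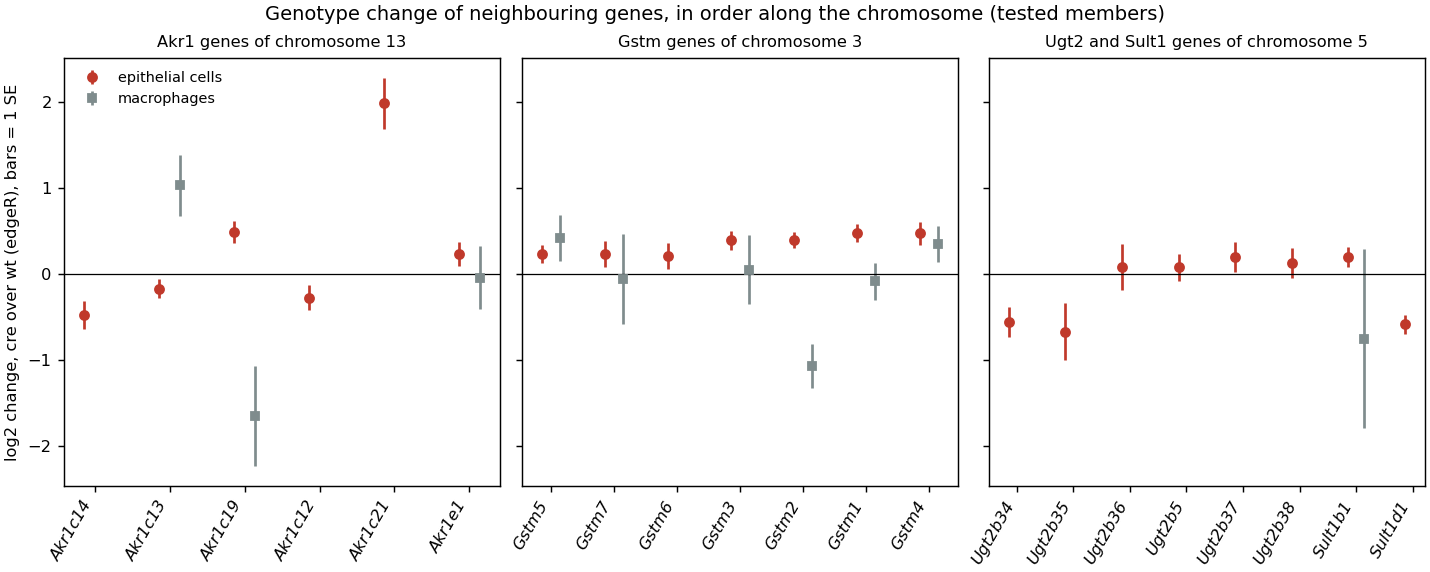
Log2 change, cre over wt, of tested members that neighbour each other, in their order along chromosomes 13, 3 and 5, with bars of 1 SE (red circles epithelial, n = 4 and 4; grey squares macrophages, n = 3 and 3). On chromosome 13 epithelial changes run from -0.47 for Akr1c14 to 1.98 for Akr1c21, whereas the 7 Gstm genes of chromosome 3 all lie between 0.21 and 0.48.

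Among aldehyde dehydrogenases 3 of 17 tested rose, 0 fell, and 14 changes were positive (median 0.28). Aldh1a1 (ENSMUSG00000053279, chr19:20492715-20643465, plus strand) oxidises retinal to retinoic acid. It had 97.9, 100.5, 105 and 95.8 CPM in cre, against 69.3, 63.6, 68.5 and 65.0 CPM in wt. The 2 groups were narrow and well apart (log2 change 0.58, SE 0.10, edgeR adjusted p = 0.00701). Aldh1a7, a close relative with 7.49% of its windows shared with Aldh1a1, had 24.3, 20.8, 24.9 and 24.8 CPM in cre, against 16.7, 20.6, 9.24 and 19.5 CPM in wt, again without overlap (log2 change 0.51, SE 0.20, edgeR adjusted p = 0.118).

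Aldh3b2, of a subfamily that oxidises fatty aldehydes in the mouse, had 14.9, 14.9, 16.5 and 13.1 CPM in cre, against 8.97, 7.66, 7.96 and 8.13 CPM in wt. The groups did not overlap (log2 change 0.86, SE 0.17, edgeR adjusted p = 0.00978). Aldh3b2 shares 24.2% of its windows, mostly with Aldh3b3, which itself had 3.86, 7.304, 5.86 and 5.70 CPM in cre, against 2.58, 4.07, 3.03 and 3.65 CPM in wt, with overlap (log2 change 0.76, SE 0.27, edgeR adjusted p = 0.0845). Aldh16a1, a family member that lacks the catalytic cysteine in mammals, had 185, 169.9, 191 and 159.8 CPM in cre, against 138, 142, 132 and 146 CPM in wt. Its cre values were all above its wt values (log2 change 0.34, SE 0.09, edgeR adjusted p = 0.0380), but it lost the call without any 1 of cre 5, 9, 10 or wt 2, 4, 6.

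The most abundant aldehyde dehydrogenase of the epithelium, the mitochondrial Aldh1b1, did not pass. It had 1023, 773, 1025 and 955 CPM in cre, against 911, 795, 764 and 969.5 CPM in wt. The groups overlapped (log2 change 0.14, SE 0.11, edgeR adjusted p = 0.451), and the change turned to -0.08 after the GC and length trend was removed. Aldh2, the main mitochondrial acetaldehyde dehydrogenase, had 182, 128, 219.8 and 194 CPM in cre, against 129.6, 129, 149.9 and 189.8 CPM in wt, with cre 8 the lowest of all 8 (log2 change 0.28, SE 0.16, edgeR adjusted p = 0.282). The remaining tested members of the family had log2 changes of -0.31 (Aldh6a1) to 0.64 (Aldh1l1) and none passed.

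Glutathione transferases gave the most calls. Of 23 tested, 9 rose, 0 fell and 21 changes were positive, with a median of 0.33. Summed over the 25 genes, their level was 4558 ± 308 CPM in cre and 3561 ± 91.5 CPM in wt epithelial libraries (SD, n = 4 each), and the lowest cre sum, 4162 CPM, was above the highest wt sum, 3683 CPM. The sum of the deposited FPKM was 2944 in cre and 2218 in wt. These genes have short transcripts, with a median of 1179 bases, against 2904 bases over all genes tested. After the GC and length trend was removed the median change was 0.15, and 1 of the 23, Gsta1, passed.

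Gsta1 (ENSMUSG00000074183, chr9:78230656-78242684, plus strand) is an alpha-class enzyme. It had 13.5, 15.8, 12.1 and 10.8 CPM in cre, against 5.29, 5.87, 7.65 and 7.19 CPM in wt. The groups did not overlap, and cre 8 was highest (log2 change 1.00, SE 0.20, edgeR adjusted p = 0.0106). Of its 50-base windows 89.7% also occur in another gene, mostly Gm3776, so its reads cannot be assigned to 1 gene. The sum of Gsta1 and its relative Gsta2 was 15.6 ± 2.09 CPM in cre and 8.10 ± 1.18 CPM in wt (SD, n = 4 each). Gsta4, which conjugates the lipid peroxidation product 4-hydroxynonenal, was the most abundant alpha-class gene and had 114, 111, 125 and 129 CPM in cre, against 108, 99.4, 103 and 117 CPM in wt (log2 change 0.17, SE 0.10, edgeR adjusted p = 0.289). Its groups overlapped.

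The mu class, 7 genes side by side on chromosome 3, had 7 positive changes, of which 4 passed. Gstm1, its most abundant member, had 470.3, 469, 606 and 497 CPM in cre, against 412, 347, 362 and 345 CPM in wt. All cre libraries were above all wt libraries (log2 change 0.48, SE 0.10, edgeR adjusted p = 0.0137). Gstm2 had 181, 163, 181 and 173 CPM in cre, against 136, 138, 119 and 139 CPM in wt. These groups did not overlap either (log2 change 0.39, SE 0.09, edgeR adjusted p = 0.0209). Gstm3 and Gstm4 passed with log2 changes of 0.39 and 0.47, and without overlap. The other 3, Gstm5, Gstm6 and Gstm7, had changes of 0.23, 0.21 and 0.23 that did not pass. Gstm1 and Gstm3 share 23.1% and 28.8% of their windows with other genes. The sum of the 7 was 1076 ± 94.9 CPM in cre and 808 ± 44.7 CPM in wt (SD, n = 4 each).

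The pi class is represented mainly by Gstp1, the most abundant member of all in epithelial libraries on the length-scaled FPKM (662 ± 121, SD, n = 8). Gstp1 had 933, 769.8, 968 and 899 CPM in cre, against 692, 663, 716 and 622 CPM in wt. No cre library was as low as a wt library (log2 change 0.41, SE 0.09, edgeR adjusted p = 0.0178). Gstp1 and Gstp2 share 62.3% and 72.6% of their windows, mostly with each other. Their class sum, with Gstp3, was 1178 ± 107 CPM in cre and 882 ± 53.1 CPM in wt (SD, n = 4 each). Gstp2 also passed (log2 change 0.45, SE 0.09, edgeR adjusted p = 0.0132), and Gstp3, at 4.04 to 6.02 CPM in cre and 1.92 to 3.65 CPM in wt, did not.

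Gsto1, the omega-class enzyme that reduces dehydroascorbate and mixed disulfides, had 1102, 1055, 1167 and 1086 CPM in cre, against 869, 819.8, 768 and 822 CPM in wt. The lowest cre library was well above the highest wt library (log2 change 0.43, SE 0.08, edgeR adjusted p = 0.00978). Gstk1, the kappa-class enzyme of mitochondria and peroxisomes, had 147, 121, 149 and 147 CPM in cre, against 98.5, 102, 126 and 90.1 CPM in wt. Here cre 8 was low and wt 6 high, so that the groups overlapped (log2 change 0.44, SE 0.12, edgeR adjusted p = 0.0348). The call was lost without any 1 of cre 5, 9, 10 or wt 2, 4, 7.

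The remaining glutathione transferases did not pass. The theta genes Gstt1, Gstt2 and Gstt3 had changes of 0.15, 0.07 and 0.08 with overlapping groups. Gstz1, which acts in tyrosine breakdown, had a change of 0.13. Among the membrane-bound enzymes, Mgst3 had a change of 0.33 (SE 0.11, edgeR adjusted p = 0.0746) and Mgst1 one of -0.07. Mgst2, which can make leukotriene C4, had 25.6, 27.8, 30.4 and 26.5 CPM in cre, against 32.3, 36.6, 38.1 and 35.8 CPM in wt. Its cre libraries were all below its wt libraries (log2 change -0.37, SE 0.12, edgeR adjusted p = 0.0705), just outside the threshold, and it passed with DESeq2 (adjusted p = 0.0409).

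**Figure D3:**
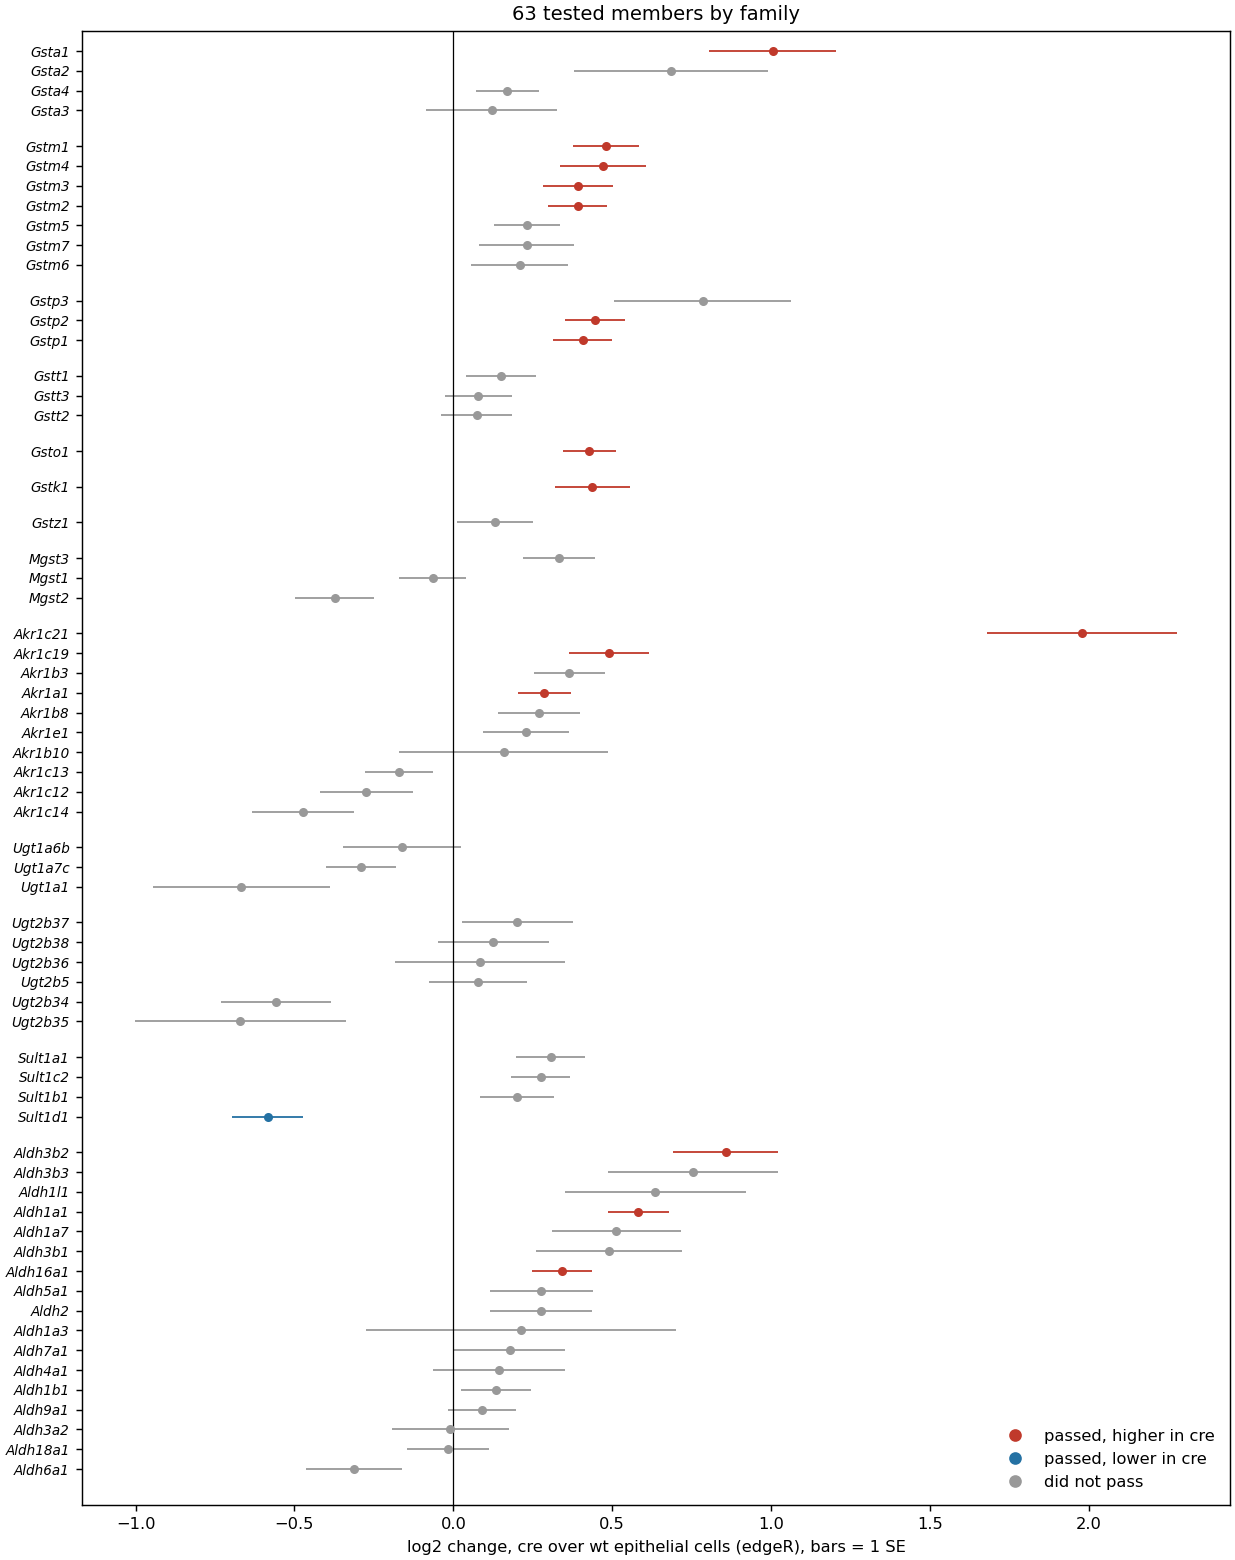
Log2 change, cre over wt epithelial cells, of the 63 tested members by family, with bars of 1 SE (n = 4 and 4). Red marks the 15 that rose, blue the 1 that fell and grey the 47 that did not pass, with glutathione transferases at the top mostly right of zero and the 3 Ugt1 genes left of it.

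Glucuronosyltransferases gave 0 calls of 9 tested with edgeR, with 3 at an unadjusted p under 0.05, all of them lower in cre (27.3% of all genes tested were under 0.05 in either direction). With DESeq2, Ugt2b34 passed (adjusted p = 0.0304). The 3 tested Ugt1 genes had negative changes. Ugt1a7c, the most abundant, had 55.7, 57.3, 62.8 and 63.9 CPM in cre, against 67.2, 77.9, 68.0 and 79.7 CPM in wt, and its cre libraries were all below its wt libraries (log2 change -0.29, SE 0.11, edgeR adjusted p = 0.105). Ugt1a genes share their last exons, and 38.9% to 80.7% of the windows of single genes recur in other genes, so the sum of the 9 is the better measure. It was 73.1 ± 4.78 CPM in cre and 90.0 ± 6.56 CPM in wt (SD, n = 4 each), and the groups did not overlap.

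Within Ugt2, 4 changes were positive and 2 negative. Ugt2b34 had 39.6, 68.8, 46.2 and 54.4 CPM in cre, against 72.5, 79.6, 59.1 and 95.7 CPM in wt. Cre 8 lay within the wt range (log2 change -0.56, SE 0.17, edgeR adjusted p = 0.0557). Ugt2b5, the most abundant of the family, had 91.4, 68.0, 76.4 and 87.5 CPM in cre, against 98.3, 83.8, 59.4 and 64.6 CPM in wt, with wide overlap (log2 change 0.08, SE 0.15, edgeR adjusted p = 0.782). Ugt2b5 and Ugt2b38 share 41.7% and 37.4% of their windows, mostly with each other, and Ugt2b37 shares 18.3%, mostly with Ugt2b5. Reads may therefore be split between these genes. The Ugt2 sum was 176 CPM in cre and 194 CPM in wt, and the direction of that ratio turned on the deposited FPKM (log2 ratio -0.14 on CPM, 0.0085 on FPKM).

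Of the 4 tested sulfotransferases 1 fell and 0 rose. Sult1d1 (ENSMUSG00000029273, chr5:87554645-87569027, minus strand), which sulfates catecholamines in the mouse, had 88.7, 107, 84.0 and 103 CPM in cre, against 155, 154, 129 and 136 CPM in wt. All cre libraries were below all wt libraries (log2 change -0.58, SE 0.11, edgeR adjusted p = 0.00959). It has the lowest GC content of the 63 tested members, 32.9%. After the GC and length trend was removed the change was -0.29 (edgeR adjusted p = 0.0709), and without cre 9 it did not pass. Its neighbour Sult1b1 had a change of 0.20 (SE 0.12, edgeR adjusted p = 0.285). Sult1a1, a phenol sulfotransferase and the most abundant of the family, had 1057, 977, 1293 and 1192 CPM in cre, against 1003, 867, 791 and 992 CPM in wt, with overlap (log2 change 0.31, SE 0.11, edgeR adjusted p = 0.0850).

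Genes that act beside these enzymes were compared from lists. Of 24 tested NRF2 targets and glutathione supply genes 3 rose and 0 fell: the glutathione peroxidase gene Gpx2 (log2 change 0.51), the carbonyl reductase gene Cbr1 (0.42) and the glutathione synthetase gene Gss (0.39). Of the 24 changes 17 were positive and 7 negative, with a median of 0.18. Of 6 tested genes of the aryl hydrocarbon receptor battery 1 rose, Cyp2s1 (0.64), with 3 changes positive and 3 negative (median -0.19). Of 23 xenobiotic-sensing transcription factors 0 passed with edgeR. At an unadjusted p under 0.05 there were 6 of the 23, 1 higher and 5 lower, against 27.3% of all genes in either direction. Of 26 cytochrome P450 and reductase genes 2 rose (Cyp2s1 and Cyb5r3, 0.38), with 13 changes positive and 13 negative. Of 16 drug and conjugate transporters 0 passed with edgeR, with 5 at an unadjusted p under 0.05 (2 higher and 3 lower), against the same 27.3%. Of 19 genes of cofactor supply 3 rose (Slc35b2, Chac1 and Gss), whereas 8 changes were positive and 11 negative (median -0.12). Chac1, which degrades glutathione, had a change of 1.42, and Slc35b2, which carries the sulfate donor into the Golgi, one of 0.48.

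Among 34 other carbonyl, alcohol and ester enzymes, with 19 positive and 15 negative changes, 6 rose and 1 fell. Those with the smallest p were Hpgd, which inactivates prostaglandins and fell by 1.604 on the log2 scale (SE 0.25, edgeR adjusted p = 0.00701), Sord (0.43), Cbr1 and Dcxr (0.45). Of 13 retinoid genes 2 rose, the retinaldehyde reductase gene Dhrs3 (0.43) and the retinol-binding protein gene Rbp7 (1.07). The 13 changes were 6 positive and 7 negative, with a median of -0.26 and a lowest value of -1.51. The counts of genes that rose or fell stand against the 5.64% higher and 3.53% lower of all genes.

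Markers of cell types and states also moved with genotype in the epithelial libraries. Of 14 tested macrophage markers 14 had negative changes and 5 fell, among them Lyz2, Laptm5, Cybb and Ptprc. Cre animals were Lyz2cre/+ and wt animals Lyz2+/+, so for Lyz2 that allele and the amount of macrophage RNA cannot be told apart. The summed level of the macrophage marker list was 49.9 to 108 CPM in cre and 95.6 to 183 CPM in wt epithelial libraries, against 17075 to 26173 CPM in macrophage libraries. Of 19 stem cell and Wnt target genes 6 fell, among them Cd44 (-0.87), whose product was part of the gate, Slc12a2, Rgmb and Sox4, and their sum was 844 to 981 CPM in cre and 1053 to 1306 CPM in wt. Of 14 pan-epithelial markers 3 rose (Krt8, Krt18 and Lgals4) and 1 fell (Cdh1), of 22 mature colonocyte genes 1 rose (Car1), of 20 goblet and deep crypt secretory genes 2 rose (Klk1 and Agr2), and of 22 proliferation genes 2 rose (Birc5 and Tyms) and 1 fell (Top2a). Changes were positive for 9 of the 14 pan-epithelial, 13 of the 20 goblet and 15 of the 22 proliferation genes. Of the 22 mature colonocyte genes 6 were positive and 16 negative, with a median of -0.24. Of 3 fibroblast and 7 dendritic cell markers tested 1 fell in each list, Col3a1 and Itgax. The other 2 fibroblast markers had positive changes, and the dendritic cell changes were 3 positive and 4 negative. Of 3 B and plasma cell markers and 4 endothelial and glial markers 0 passed with edgeR, and 0 had an unadjusted p under 0.05. The part of these shifts in the changes of the enzymes was not tested.

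In macrophages, the cells to which the deletion is directed, no member passed. This test was the weaker one: in simulated data it recovered 19% of 2-fold changes, against 86% for the epithelial test. With edgeR 0 of 45 tested members were called, against 0.944% of all 14087 genes tested (0.731% higher and 0.213% lower). At an unadjusted p under 0.05 there were 12, 6 higher and 6 lower, against 12.8% of all genes. The cre libraries all lay above the wt libraries for 6 members and all below for 5, against 10.3% and 9.60% of all genes. DESeq2 called 1 higher (Akr1a1) and 3 lower (Gstm2, Gstt1 and Aldh1a2), against 1.84% of all genes. Voom with quality weights called 1 higher (Akr1a1), against 1.69% of all genes. The median change was -0.06, and the summed level of the glutathione transferases was 535 ± 23.0 CPM in cre and 550 ± 75.2 CPM in wt macrophage libraries (SD, n = 3 each).

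Akr1a1 had the smallest p. It had 1602, 1213 and 1306 CPM in cre, against 933, 839 and 851 CPM in wt for mice 8, 9 and 10 of cre and 2, 4 and 6 of wt. The groups did not overlap (log2 change 0.65, SE 0.16, edgeR adjusted p = 0.110). In males alone, where wt 6 is the only wt library, the change was 0.70. Since Akr1a1 made up most of the aldo-keto reductase sum, that sum was also higher, at 1504 ± 219 CPM in cre and 983 ± 43.7 CPM in wt (SD, n = 3 each).

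Gstm2 had 20.03, 32.6 and 22.6 CPM in cre, against 60.1, 60.6 and 37.3 CPM in wt. Cre libraries were all lower (log2 change -1.07, SE 0.26, edgeR adjusted p = 0.114), and within wt the male library, wt 6, was the lowest. All 3 cre macrophage libraries came from males. Changes with sex as a covariate, in this paragraph, therefore compare them with wt 6, the only male wt macrophage library. For Gstm2 that change was -0.57. Gstt1 had the same layout, with 7.13, 14.8 and 14.1 CPM in cre, against 33.0, 33.9 and 18.01 CPM in wt (log2 change -1.23, SE 0.34, edgeR adjusted p = 0.165), and its change was -0.58 with sex as a covariate. Aldh1a2, a retinal dehydrogenase of dendritic cells and stroma, had 8.35, 7.68 and 14.9 CPM in cre, against 28.0, 28.0 and 17.3 CPM in wt (log2 change -1.24, SE 0.32, edgeR adjusted p = 0.134), and its change was -0.75 with sex as a covariate. Markers of other cells had lower values too. Of 16 dendritic cell markers 16 were negative with 1 call (Itgae). Of 17 fibroblast and smooth muscle markers 14 were negative with 2 calls (Mfap4 and Fbln1). These calls stand against 0.213% lower of all genes. The dendritic cell list summed to 1860 to 2041 CPM in cre and 2633 to 3778 CPM in wt. Its sum was also 1650 to 2093 CPM in cre and 1371 to 1794 CPM in wt epithelial libraries, so it does not measure dendritic cells alone. The fibroblast and smooth muscle list summed to 1583 to 3743 CPM in cre and 4358 to 8016 CPM in wt macrophage libraries. The part of such cells in the values of Gstm2, Gstt1 and Aldh1a2 was not tested.

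Of the NRF2 targets and glutathione supply genes 2 of 24 rose in cre macrophages, the haem oxygenase gene Hmox1 (1.28) and the peroxiredoxin gene Prdx1 (0.81), and of the other carbonyl, alcohol and ester enzymes 1 of 29 rose, Sord (1.27). No gene passed in the other lists of xenobiotic handling. Of the marker lists, Cd68 of the macrophage markers (1.31) and Slc37a2, listed with mature colonocytes (1.61), rose. The rises in these lists stand against 0.731% higher of all genes tested in macrophages. Of the 18 macrophage markers 12 changes were positive and 6 negative, and of the 12 tested colonocyte genes 2 were positive and 10 negative.

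**Figure D4:**
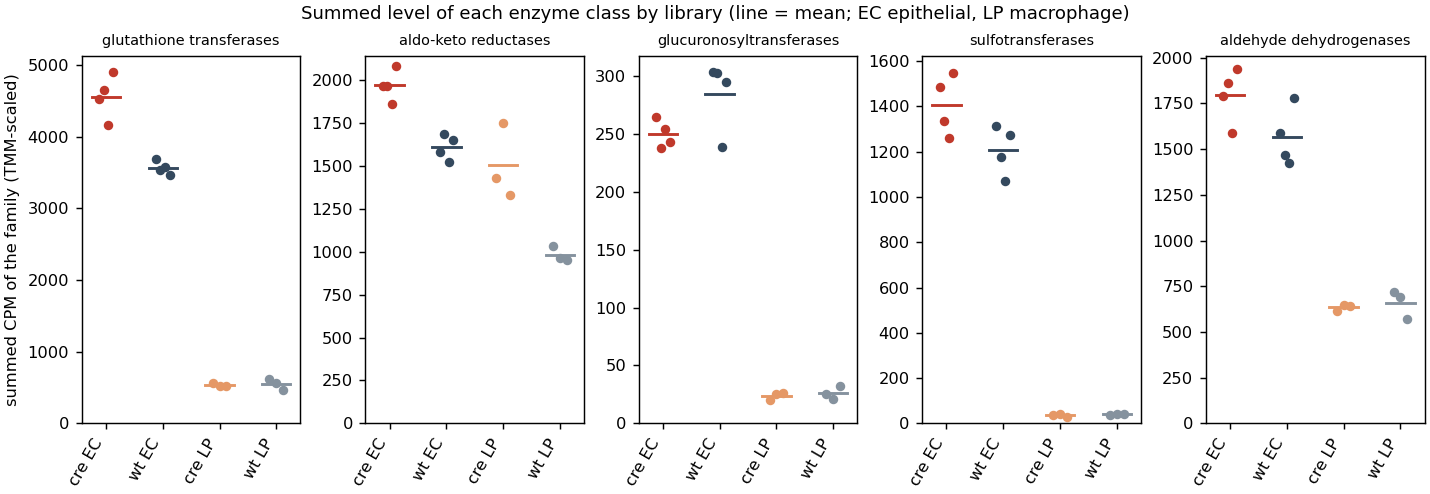
Summed CPM of each enzyme class in every library, with a line at each group mean (cre and wt, epithelial EC with n = 4 each, macrophage LP with n = 3 each). In epithelial cells the glutathione transferase and aldo-keto reductase sums of cre lie above all wt sums, in macrophages only the aldo-keto reductase sum does, and glucuronosyltransferase and sulfotransferase sums are near the bottom of their axes in macrophages.

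The genotype effect itself differed between the populations for 3 of 66 members, 2 more positive and 1 more negative in epithelial cells, against 0.702% of all 16375 genes tested (0.232% and 0.470%). At an unadjusted p under 0.05 there were 16 members, against 15.3% of all genes. For Gstm2 the epithelial effect minus the macrophage effect was 1.48 (SE 0.26, edgeR adjusted p = 0.0127), and it passed in every alternative run, from 1.35 without wt 2 of macrophages to 1.72 without cre 9 of macrophages. For Akr1c19 the difference was 2.20 (SE 0.41, edgeR adjusted p = 0.0185). In macrophages Akr1c19 was low, with 0.910, 0.556 and 0.854 CPM in cre, against 2.87, 1.32 and 3.08 CPM in wt, and these groups did not overlap (log2 change -1.65, SE 0.58, edgeR adjusted p = 0.273). At that level it stood at 81 counts in all 6 macrophage libraries and 26382 counts in the 8 epithelial libraries, and pan-epithelial markers summed to 106 to 228 CPM in cre and 65.6 to 449 CPM in wt macrophage libraries. The part of epithelial RNA in those 81 counts was not tested. The Akr1c19 difference did not pass without cre 9 or wt 2 of macrophages (edgeR adjusted p = 0.0600 and 0.0604). Nor did it pass with voom (adjusted p = 0.225), with limma on log2(FPKM + 1) with or without a filter (0.0535 and 0.111) or with mouse number as a block (0.177). Without wt 6 of macrophages 6 members were more positive in epithelial cells and 1 more negative, against 1.36% of all genes in either direction.

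Akr1c13 differed the other way, by -1.18 (SE 0.24, edgeR adjusted p = 0.0281). In macrophages it had 5.31, 5.45 and 6.55 CPM in cre, against 2.25, 2.65 and 3.55 CPM in wt, all cre libraries being higher (log2 change 1.03, SE 0.35, edgeR adjusted p = 0.259), and in epithelial cells it had 72.2, 82.6, 76.2 and 78.1 CPM in cre, against 80.3, 88.1, 80.0 and 99.1 CPM in wt, with overlap. This difference did not pass without any 1 of 7 libraries (cre 5, 9, 10 and wt 4 of epithelial cells, cre 10 and wt 2 and 4 of macrophages), where the edgeR adjusted p was 0.0595 to 0.0992. Nor did it pass with voom (adjusted p = 0.0998) or with mouse number as a block (0.122). Akr1c13 and Akr1c12 share windows as given above. The epithelial rises of Akr1c21, Gsta1, Aldh1a1 and the other members were not shown to differ from the macrophage effect, or could not be compared because macrophages had too few counts. Aldh1a1, for example, differed by 1.17 (SE 0.34, edgeR adjusted p = 0.129).

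Most tested members were higher in epithelial cells. Of 66 members tested 50 were higher in epithelial cells and 5 in macrophages, by at least 1 on the log2 scale and an adjusted p under 0.05, against 22.5% higher and 29.7% lower of all genes (52.2% in either direction). At an unadjusted p under 0.05 there were 62 members, against 75.3% of all genes. On the deposited FPKM, which is scaled by length, the leading epithelial members were Gstp1 (662 ± 121), Gsto1 (565 ± 100), Akr1a1 (543 ± 70.6), Sult1a1 (489 ± 82.9) and Aldh1b1 (272 ± 35.5, SD, n = 8 each). These means pool both genotypes. Gstp1 was the highest of the first 4 in each of the 8 libraries, at 664 to 829 FPKM in cre and 524 to 594 FPKM in wt. In all 4 cre libraries Gsto1, Akr1a1 and Sult1a1 followed in that order, whereas their order varied between wt libraries. Aldh1b1, at 226 to 314 FPKM, lay below the lowest value of each of them. In macrophages Akr1a1 led with 731 ± 192 FPKM, followed at a distance by Gstp1 (99.8 ± 12.6), Gsto1 (96.0 ± 26.7), Gstm1 (67.5 ± 13.4), Aldh2 (51.7 ± 6.50) and Akr1b3 (50.1 ± 6.95, SD, n = 6 each). Gstp1 was above Gsto1 in 1 of 3 cre and 3 of 3 wt libraries, and the order of Aldh2 and Akr1b3 varied within both genotypes.

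**Figure D5:**
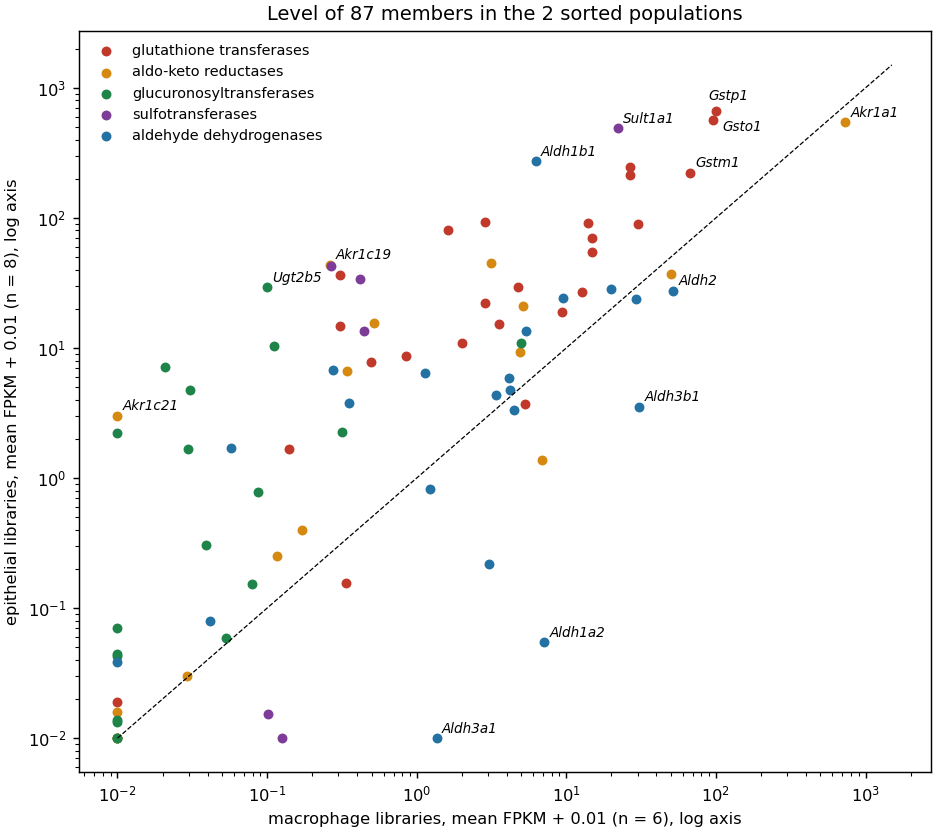
Mean deposited FPKM plus 0.01 of all 87 members in epithelial libraries (vertical, n = 8) and macrophage libraries (horizontal, n = 6), both on log axes, coloured by class, with a dashed line of equality. Most points lie above the line, the more abundant Ugt2 and Sult1 genes far above it. Akr1a1, Aldh2, Aldh3b1, Aldh1a2 and Aldh3a1 are among those below it.

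Several Ugt2 genes had almost no counts in macrophages. Ugt2b5 had 5593 counts in the 8 epithelial libraries and 9 in the 6 macrophage libraries (log2 difference 8.33, SE 0.26, edgeR adjusted p = 4.77e-14), Ugt2b38 had 1371 and 1, and Ugt2b37 had 910 and 2. These genes share windows as given above. Akr1c21 and Ugt2b36 had no count in any macrophage library, so the size of their difference is known only as a lower bound. Against a floor of 3 counts per macrophage library, with all 14 libraries scaled together, Akr1c21 was at least 17.8-fold higher in cre and at least 4.44-fold higher in wt epithelial cells. For Ugt2b36 the bounds were at least 13.3-fold higher in cre and at least 12.5-fold higher in wt epithelial cells. No member of Ugt2 passed the low-count filter in the macrophage comparison.

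The 5 members higher in macrophages were 4 aldehyde dehydrogenases and Akr1b10. Aldh3a1, which oxidises aldehydes from lipid peroxidation, had no count in the 8 epithelial libraries and 135 in the 6 macrophage libraries, at least 9.94-fold higher in cre and at least 9.02-fold higher in wt macrophages against a floor of 3 counts per epithelial library. Aldh1a2 had 9 counts in epithelial and 860 in macrophage libraries (log2 difference -7.07, SE 0.42, edgeR adjusted p = 1.15e-10). Aldh1a3, also a retinal dehydrogenase, differed by -3.66, Aldh3b1, a fatty aldehyde dehydrogenase, by -3.02, and Akr1b10 by -2.18. The 3 retinal dehydrogenase genes were thus split, with Aldh1a1 at 24.1 ± 5.57 FPKM in epithelial (SD, n = 8) and 9.45 ± 4.01 FPKM in macrophage libraries (SD, n = 6), and Aldh1a2 and Aldh1a3 on the macrophage side. The dendritic cell markers Itgae, Xcr1, Flt3 and Zbtb46 had 23 to 364 counts in macrophage libraries and 0 to 7 in epithelial libraries. Fibroblast markers were also present in the macrophage libraries, at the levels given above. Which cells carried Aldh1a2 and Aldh1a3 was not tested.

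The 24 members without an epithelial test were low or absent there. They are 6 aldo-keto reductases, 6 Ugt1 and 4 Ugt2 genes, 2 sulfotransferases, 2 glutathione transferases and 4 aldehyde dehydrogenases, and none exceeded 13 counts in an epithelial library. Of these, Aldh1a2 reached 273 counts and Aldh3a1 40 counts in a macrophage library, and the others reached at most 10 counts. For 21 members no comparison was made.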

How the data were processed

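RNA of 14 libraries was made into full-length cDNA with Smart-seq2 and Nextera XT libraries, which keep no strand, and sequenced as 50 bp single reads, per the labels. GRCm38 is the build in the submitters' processing notes, and the tools there are DESeq2 1.24.0, Picard 2.19.2 and STAR 2.5.2b. What each tool did, the strand setting, annotation release and read counter are not given in the labels or files used here. Reads of antisense partners or near-identical copies cannot be told apart. The authors deposited whole-number counts per gene and library. They also deposited FPKM, which equal the count times 1 factor per gene and 1 per library.

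For the tests, edgeR 4.0.16 (R 4.3.3) was run on the counts (TMM, filterByExpr with a minimum count of 10, robust quasi-likelihood F test, Benjamini-Hochberg over all genes, adjusted p under 0.05, and an absolute log2 difference of 1 between populations). Each population was fitted alone for genotype, and all 14 libraries with 4 groups for the difference of effects and between populations. CPM per library use the scaling of its own population. The SE of a log2 change is its size over the root of its F statistic. Gene coordinates, transcript length, GC content and shared 50-base windows came from GENCODE M21 and promoter windows from RefSeq. Family sums carry no test. An exact permutation test cannot give a two-sided p below 0.0286 for 4 against 4 or 0.10 for 3 against 3 libraries. Floors of 3 counts cover counting error only. Methods were tested on simulated data. Of simulated 2-fold changes in well-counted genes, 86% were recovered in the epithelial, 19% in the macrophage comparison and 17% for the difference of effects.

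Members and gene lists were chosen with earlier results of these data known. Named are members past a genotype threshold, the most abundant member of each family by FPKM and that of smallest p, the 5 largest differences each way between populations, the 3 members nearest the threshold, and up to 4 genes of each list by p. Other members were named to describe a cluster, class or family after their values were seen. Of the list genes, Pgdx matched no symbol.

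Other settings tried were DESeq2 1.42.0, RLE normalization, no filter, a minimum count of 50, voom with quality weights (limma 3.58.1), limma on log2(FPKM + 1) and log2(FPKM + 0.1), sex, males alone, 1 fit of all libraries, removal of a GC and length trend (splines of 5 degrees of freedom), ribosomal, mitochondrial and pseudogene rows left out, the ribosomal RNA share, mouse number as a block, and each library omitted in turn.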

Additional observations from a re-analysis of the deposited data

Results flagged for a closer look

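Of 76 groups of 4 epithelial libraries checked, 3 held a library far from the other 3, measured as its gap to the nearest divided by the group's range. Chance flags about 1 in 20 groups. Gstk1 in cre 8 stood at 121 CPM, against 147 to 149 CPM in the other cre libraries (ratio 0.903). Gstt1 in wt 4 stood at 53.0 CPM, against 55.1 to 55.5 CPM (ratio 0.836). Akr1b10 in wt 7 stood at 3.18 CPM, against 2.27 to 2.39 CPM (ratio 0.873).

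The genotype effect differed between epithelial cells and macrophages for Gstm2 (epithelial minus macrophage 1.48 on the log2 scale), Akr1c19 (2.20) and Akr1c13 (-1.18), by the test of the difference itself. With a sex term shared by both populations as a covariate, the differences were 1.36, 2.15 and -1.12, and all 3 passed. That shared term cannot remove a sex effect particular to macrophages, so these values do not settle the part of sex. With voom or with mouse number as a block only Gstm2 of the 3 passed, and Akr1c19 did not pass on log2(FPKM + 1) either.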

How the results depend on the processing

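Against 15 members higher and 1 lower in cre epithelial cells, the counts higher and lower were 18 and 3 with DESeq2, 19 and 2 without a filter, 14 and 4 with a minimum count of 50, 22 and 4 with voom, 20 and 2 with log2(FPKM + 1) or log2(FPKM + 0.1), 0 and 0 without the FPKM filter, 14 and 2 with sex, 0 and 0 in males alone, with all 14 libraries or with the ribosomal RNA share, and 6 and 0 with the GC and length trend removed. Of all genes, 7.08% were called with DESeq2, 6.58% without a filter, 14% with a minimum count of 50 and 17.6% with voom. The share was 13.2% with log2(FPKM + 1), 13% with log2(FPKM + 0.1), 10.8% with sex and 3.06% with the trend removed, against 9.17%. It was 0.036% in males alone, 0.116% with all 14 libraries, 0.0221% with the ribosomal RNA share and 0% without the FPKM filter. With ribosomal, mitochondrial and pseudogene rows left out, the counts were 16 and 1, with 10.6% of all genes called. Leaving out 1 library gave 4 to 18 higher and 0 to 2 lower, with 1.29% to 14.1% of all genes called. In macrophages, against 0 and 0, the counts were 1 and 3 with DESeq2, 1 and 2 without a filter, 1 and 0 with voom and 2 and 3 with all 14 libraries, and 0 and 0 without any 1 library. The shares of all genes were 1.84%, 1.11%, 1.69% and 2.28% in that order, and 0.197% to 0.596% without 1 library, against 0.944%. For the difference of effects, against 2 and 1, the counts were 6 and 1 with DESeq2, 2 and 0 with voom, 4 and 1 with log2(FPKM + 1) or log2(FPKM + 0.1), and 1 to 6 higher and 0 to 1 lower without 1 library (6 without wt 6 of macrophages). The shares of all genes were 1.63%, 1%, 2.43% and 1.23% in that order, and 0.331% to 1.36% without 1 library, against 0.702%. Between populations the counts stayed at 43 to 51 and 4 to 5, against 50 and 5, with 17.7% to 53.3% of all genes called, against 52.2%. Why the counts and shares moved between settings was not tested.

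In epithelial cells the log2 change turned for Ugt2b36 with sex (-0.030) and without 1 library (-0.046 to 0.24), Aldh1a3 in males (-0.21) and without 1 library (-0.20 to 0.55), Gstt1, Gstt3 and Aldh1b1 with the trend removed (-0.10, -0.11 and -0.082), Gstt3, Ugt2b5 and Aldh1b1 with the ribosomal RNA share (-0.060, -0.17 and -0.060), and Ugt2b5 and Akr1b10 without 1 library (-0.023 to 0.22 and -0.071 to 0.32). The Ugt2 sum turned on FPKM (0.0085). In macrophages without 1 library these log2 ratios of summed levels turned: Gstk (-0.21 to 0.033), Gstz (-0.036 to 0.20), Mgst (-0.14 to 0.031), Ugt1 (-0.26 to 0.0090), Ugt2 (-0.50 to 0.92), Aldh (-0.15 to 0.0072), glutathione transferases (-0.14 to 0.049) and glucuronosyltransferases (-0.27 to 0.037).

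The 2 genotypes share no mouse number, so a block applies only across populations. Deviations of epithelial and macrophage libraries with the same number correlated at -0.03 to 0.09, so the numbers were not taken as pairs. With the replicate block, 1 member (Gstm2) was higher and 0 lower for the difference of effects, against 2 and 1, Akr1c19 and Akr1c13 being lost, and 50 and 5 differed between populations. Of all genes, 0.598% and 52.7% were called in these comparisons. With 3 macrophage libraries a group and all cre ones male, genotype and sex are hard to separate there. For members at a few counts, such as most Ugt genes in macrophages, genotype differences were not detectable at this depth.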
